A study of Mus musculus with 12 samples.

Results

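Transcripts of 8 keratins (Krt5, Krt7, Krt8, Krt14, Krt15, Krt17, Krt18 and Krt19) and of vimentin (Vim) were followed in C22 cells, a mouse club cell line, among 23282 gene rows of the count data. The set was chosen by gene symbol, and the response of Krt14 to TGF-β1 in control cells was already known from these libraries when it was put together. All 9 members had a row. Of these, Krt7, Krt8, Krt14, Krt18 and Vim passed edgeR's filter on low counts and stood among 12425 genes tested, and Krt5, Krt15, Krt17 and Krt19 did not pass.

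C22 is a cloned line from H-2Kb-tsA58 transgenic mice, which carry a temperature-sensitive viral antigen, so it grows at 33 °C with gamma-interferon and differentiates at a higher temperature without it. Per the paper, cells were moved to the higher temperature without gamma-interferon for experiments. Whether the cells of these groups had differentiated was not tested. The 4 groups of 3 libraries each were negative control cells without TGF-β1 (NC), negative control cells given 20 ng/ml TGF-β1 for 24 h after serum starvation (NC + TGF-β1), Pdcd5 knockdown cells without TGF-β1 (siPdcd5) and Pdcd5 knockdown cells given the same TGF-β1 treatment (siPdcd5 + TGF-β1). A time is given for the TGF-β1 groups alone, so it is not known here whether the untreated cells were starved and held alike. The labels do not say whether replicates were separate cultures, so p-values measure the spread between these libraries, which may be technical. The libraries, made with a 3′ mRNA-seq kit, held 12809857 to 17714828 counted reads, and 3 counts, used as a floor that covers counting error only, came to 0.165 to 0.239 CPM (the reads of a gene relative to the scaled total of its library). Pdcd5 had 65.1 to 73.5 CPM in the 6 libraries of negative control cells and 20.0 to 26.35 CPM in the 6 of knockdown cells. The defining club cell markers were nearly absent. Of 6 listed, Scgb3a2, Cyp2f2, Cckar and Upk3a had no read in any library, and Scgb1a1 had 1 read in all. Scgb3a1 had 0 to 5 reads per library and was over the floor in NC + TGF-β1 alone, at up to 0.366 CPM. The sum of the 6 reached at most 0.439 CPM.

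Intermediate filaments are the rope-like part of the cytoskeleton. In epithelia they are built from keratins, which pair 1 acidic type I chain (here Krt14, Krt15, Krt17, Krt18 and Krt19) with 1 basic type II chain (here Krt5, Krt7 and Krt8). Krt8 with Krt18 is the pair of simple epithelia, and Krt5 with Krt14 that of basal cells, whereas vimentin is the filament protein of mesenchymal cells and of many cultured cells. TGF-β1 is the cytokine best known for shifting epithelial cells towards a mesenchymal program, in which keratins are commonly lost and vimentin gained.

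In GRCm38, the mouse assembly also called mm10, the type I members other than Krt18 lay on chromosome 11 within 129 kb, and the type II members lay on chromosome 15 within 621 kb together with Krt18, a type I gene that stands 23.7 kb from its partner Krt8. Vim lay on chromosome 2. RefSeq start sites of GRCm38.p6 were matched for 6 of the 9 members. The 250 bases before each start were searched on both strands for CAGAC (a core of SMAD-binding elements), TGANTCA (the AP-1 motif) and TATAAA (the core promoter element that binds TBP). These were held by 42.2%, 6.7% and 12.4% of 32851 such promoters. The windows of 30 bases below are shown because Krt18, Krt14 and Vim are among the members that carry the changes described here. Capitals mark the motif, the strand is that of the gene, and no motif overlapped another.
Krt18, chr15:102027969-102027998, plus strand, CAGAC at −235 to −231: ttgccctgaaaaCAGACactcaggggctaa
Krt14, chr11:100206068-100206097, minus strand, CAGAC read on the other strand at −55 to −51: aggaatgcgtgtGTCTGcagatggctgata
Vim, chr2:13574267-13574296, plus strand, TATAAA at −32 to −27: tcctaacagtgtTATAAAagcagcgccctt
Krt7 held 1 CAGAC, Krt5 held none of the motifs, and TGANTCA was in none of the 6 windows. The RefSeq start used for Krt14 lay 1518 bases inside the gene as GENCODE draws it, and those of Krt7, Vim and Krt18 lay 1360, 384 and 36 bases inside. A match describes letters only, and binding was not measured in these data.

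The simple epithelial pair was higher with TGF-β1 in control cells and in Pdcd5 knockdown cells. Krt8 (chr15:101996698-102004482, minus strand) is the type II chain. It was at 181, 175 and 211 CPM in NC, 505, 431 and 524 CPM in NC + TGF-β1, 171, 219 and 188 CPM in siPdcd5 and 458, 444 and 438 CPM in siPdcd5 + TGF-β1. The groups without TGF-β1 overlapped each other, as did those with it, and every library with TGF-β1 was above every library without. In NC cells Krt8 was 2.57-fold higher with TGF-β1 (log2 fold change 1.36, standard error 0.11), given as a description because the set was chosen with a response in these libraries known. In siPdcd5 cells, whose 6 libraries do not enter the NC comparison, it rose 2.32-fold (log2 fold change 1.21, standard error 0.11, adjusted p = 2.99e-06, quasi-likelihood F test of edgeR, adjusted by Benjamini-Hochberg over all genes tested, as throughout).

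Krt18 (chr15:102028180-102032027, plus strand), the type I partner of Krt8, was at 511, 495 and 478 CPM in NC and 1116, 807 and 1151 CPM in NC + TGF-β1. In siPdcd5 it was at 373, 455 and 508 CPM, and in siPdcd5 + TGF-β1 at 1126, 1199 and 1142 CPM. As for Krt8, the libraries split by TGF-β1 and overlapped between control and knockdown cells. The lowest treated value, 807 CPM, came from NC + TGF-β1 replicate 2, which was also lowest of its group for Krt8. That library stood apart over the genes tested as well. Its counts differed from replicates 1 and 3 with a chi-square per degree of freedom of 34.2 and 61.6, against 11.8 between those. The difference was 2.07-fold in NC cells (log2 fold change 1.05, standard error 0.13) and 2.59-fold in siPdcd5 cells (log2 fold change 1.38, standard error 0.13, adjusted p = 5.67e-06). Krt8 and Krt18 had the most similar profiles among the members tested, with a root mean square difference of 0.185 between their centred log2 CPM values over 12 libraries, against 0.559 to 2.66 for the other pairs.

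Krt14 (chr11:100203162-100207548, minus strand), the type I keratin of basal cells, had the largest fold change of the 5 members tested. It was at 10.7, 9.87 and 11.9 CPM in NC, which is 141, 133 and 155 reads, and at 183, 169 and 210 CPM in NC + TGF-β1. In siPdcd5 it was at 1.77, 4.25 and 4.51 CPM, from 24, 77 and 70 reads, and in siPdcd5 + TGF-β1 at 84.2, 88.0 and 75.1 CPM. The order of levels was siPdcd5, NC, siPdcd5 + TGF-β1 and NC + TGF-β1, and no group overlapped its neighbour in that order. In NC cells the level was 17.3-fold higher with TGF-β1 (log2 fold change 4.11, standard error 0.19). In siPdcd5 cells it rose 23.0-fold (log2 fold change 4.52, standard error 0.21, adjusted p = 6.72e-09).

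Krt14 was the member that fell with Pdcd5 knockdown, with and without the cytokine. The comparisons of this paragraph use libraries of the NC comparison, in which the response of Krt14 was already known when the set was chosen. Without TGF-β1 it fell 3.02-fold (log2 fold change −1.60, standard error 0.23, adjusted p = 0.00144), and with TGF-β1 it fell 2.27-fold (log2 fold change −1.18, standard error 0.17, adjusted p = 0.00219). Both changes kept their side of the threshold in 19 of 19 alternative fits, with adjusted p of 8.99e-12 to 0.00977 and 8.66e-10 to 0.0473. Leaving out siPdcd5 replicate 1, the library with 24 reads, gave −1.31 for the first. Over the genes tested that library differed from replicates 2 and 3 with a chi-square per degree of freedom of 34.4 and 26.5, against 10.1 between those. The response to TGF-β1 itself was not shown to differ between siPdcd5 and NC cells (difference of log2 fold changes 0.41, 95% interval −0.14 to 0.97, adjusted p = 0.96).

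Markers of other cells were read beside Krt14. The summed level of 8 fibroblast markers was 3761 to 4005 CPM in NC, 7447 to 8065 CPM in NC + TGF-β1, 2562 to 3137 CPM in siPdcd5 and 5613 to 5972 CPM in siPdcd5 + TGF-β1, a sum carried by the collagen genes Col1a1 and Col3a1 and in the same order of groups as Krt14. Of the 8, 6 or 7 lay over the floor in each group, and Lum had at most 1 read in any library. Other markers of the list had other orders. Dcn, which encodes decorin, ran opposite to Krt14, at 91.7 to 101 CPM in NC and 21.8 to 23.9 CPM in NC + TGF-β1, and it rose after knockdown without and with TGF-β1 (log2 fold changes 0.59 and 0.88, adjusted p = 0.00234 and 0.000544). Col1a2, another collagen gene, rose after knockdown without TGF-β1 from 3.58 to 12.1 CPM on average (log2 fold change 1.74, adjusted p = 0.000633). Their part in the changes of Krt14 and Vim was not tested. In bulk RNA, a change in the number of cells of a kind and a change in RNA per cell cannot be told apart. Of 6 basal cell markers, 2 or 3 lay over the floor. Their sum of 230.5 to 442 CPM was nearly all Pdpn at 229.9 to 441.9 CPM, and Trp63, the defining transcription factor of basal cells, had 0 to 3 reads per library. The paper uses the protein of Pdpn to mark alveolar type 1 cells, so this sum does not single out basal cells.

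**Figure D1:**
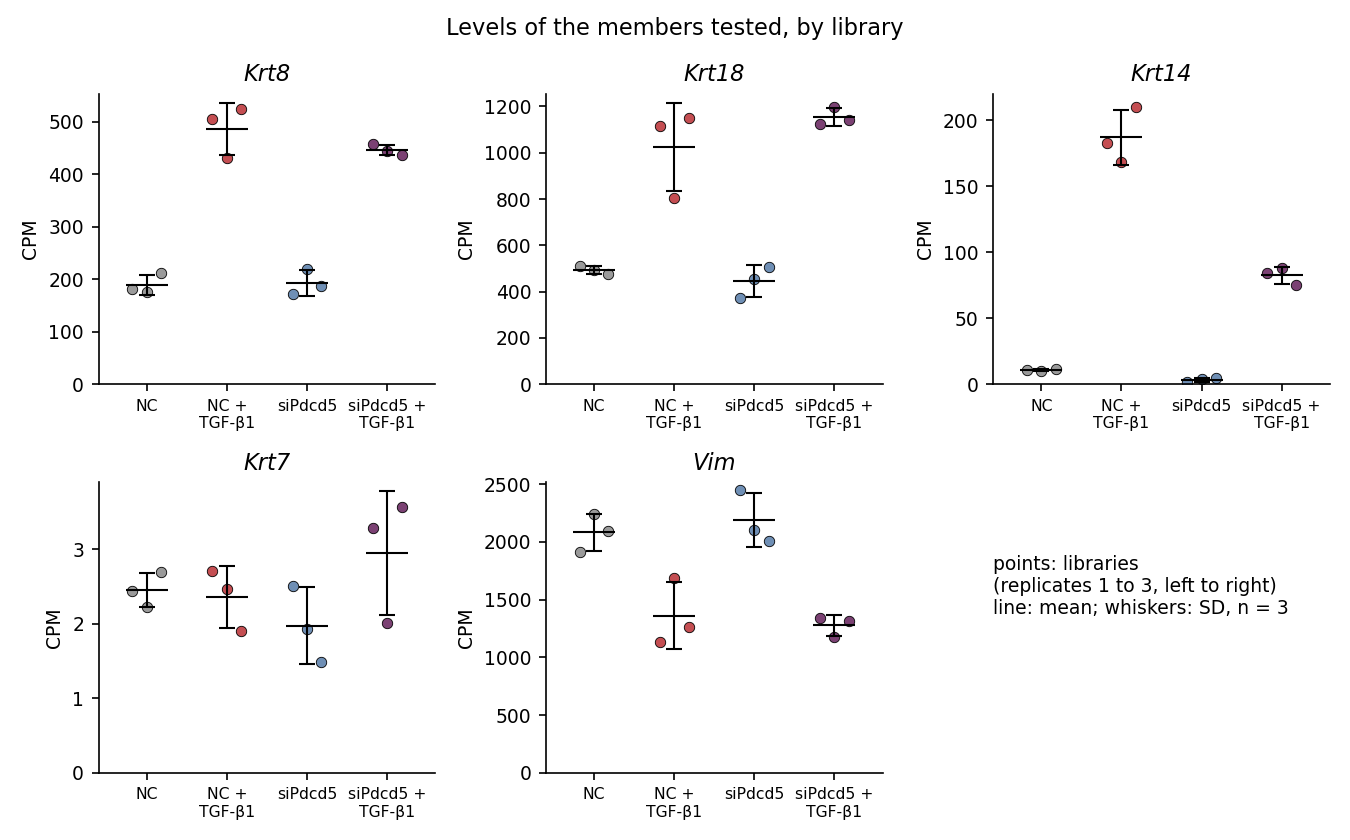
CPM of Krt8, Krt18, Krt14, Krt7 and Vim in each of the 12 libraries by group, with linear axes from 0, the mean as a line and the SD as whiskers (n = 3). Krt8, Krt18 and Krt14 lay higher and Vim lower in every TGF-β1 library than in the untreated libraries of the same cells, and Krt14 lay lower in siPdcd5 than in NC cells, at 82.4 against 187 CPM on average with TGF-β1.

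Krt5, the type II partner of Krt14 in basal cells, did not appear beside it. It had 0, 1 and 0 reads in NC, 0, 1 and 0 in NC + TGF-β1, none in siPdcd5 and 3, 0 and 1 in siPdcd5 + TGF-β1, which lies at or below the floor in all 12 libraries. The level of Krt14 thus reached 210 CPM in libraries where Krt5 did not exceed 0.201 CPM. Krt17, a type I keratin of injured and activated epithelia, had 0, 1 and 1 reads in NC, 5, 6 and 3 in NC + TGF-β1, none in siPdcd5 and 5, 0 and 2 in siPdcd5 + TGF-β1. A count of 0 allows a level up to the floor, and at this depth no fold change was computed for it. Its transcript shares a stretch of 961 bases with Krt14 at 89.4% identity, ending 303 bases from its 3′ end, and because multiple alignments were counted, the few reads of Krt17 are uncertain.

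Krt15, a type I keratin of basal and progenitor cells, had 4, 3 and 5 reads in NC, 3, 1 and 0 in NC + TGF-β1, 19, 5 and 7 in siPdcd5 and 4, 6 and 0 in siPdcd5 + TGF-β1. The 19 reads came from siPdcd5 replicate 1 alone, at 1.40 CPM, and the groups overlapped otherwise. Krt19, a type I keratin of simple epithelia and airway lining, had 0 to 4 reads in every library. A difference in either was not detectable at this depth.

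**Figure D2:**
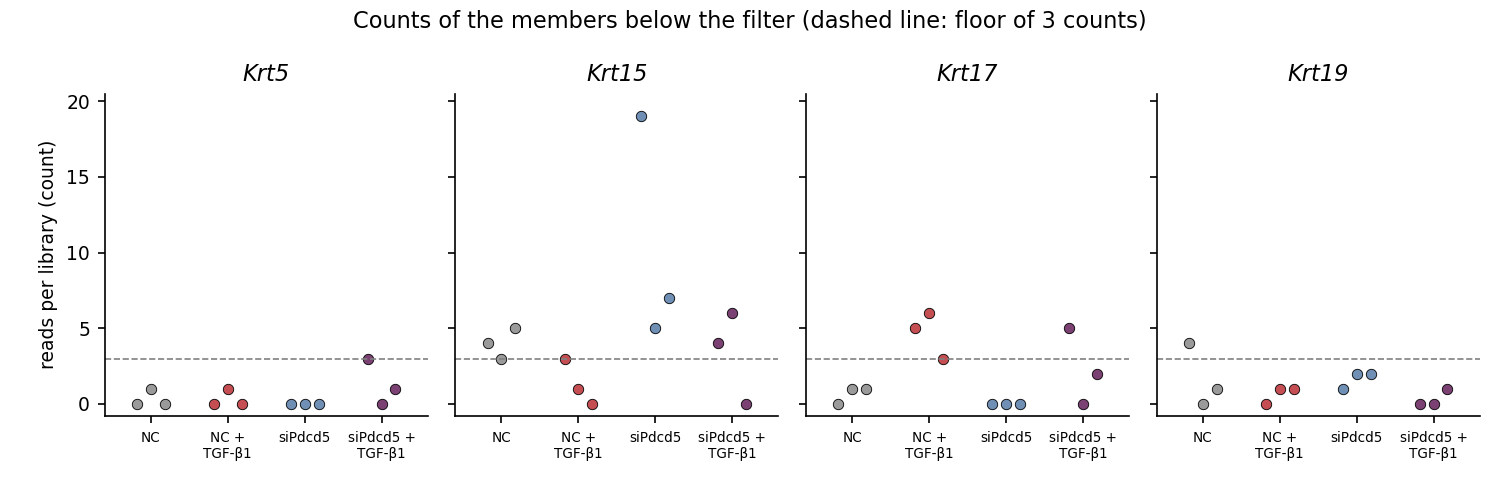
Reads per library of Krt5, Krt15, Krt17 and Krt19, the members below the filter, with 1 point per library and a dashed line at the floor of 3 counts. Apart from the 19 reads of Krt15 in siPdcd5 replicate 1, no library had more than 7 reads of any of them.

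Krt7 (chr15:101411043-101430313, plus strand), a type II keratin of simple and glandular epithelia, stayed low. It was at 2.43, 2.23 and 2.69 CPM in NC, 2.71, 2.47 and 1.90 CPM in NC + TGF-β1, 2.51, 1.93 and 1.48 CPM in siPdcd5 and 3.29, 2.01 and 3.56 CPM in siPdcd5 + TGF-β1, from 23 to 53 reads. All groups overlapped. Its log2 fold change with TGF-β1 was −0.06 (standard error 0.29) in NC cells and 0.59 (standard error 0.285, adjusted p = 0.184) in siPdcd5 cells, with a 95% interval of 0.04 to 1.15 for the latter. The unadjusted p of the F test was 0.055, and the interval, from a normal approximation, is somewhat too short. The last 500 bases of its transcript hold a stretch at least 90% identical to transcripts of 65 other genes, and the antisense gene Gm671 overlaps it, so its reads are uncertain.

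Vim (chr2:13573927-13582826, plus strand) moved opposite to the keratins that rose. It was at 1911, 2238 and 2096 CPM in NC, 1130, 1689 and 1262 CPM in NC + TGF-β1, 2450, 2101 and 2006 CPM in siPdcd5 and 1345, 1174 and 1315 CPM in siPdcd5 + TGF-β1. The treated libraries lay below the untreated ones, and control and knockdown cells overlapped in either state. In NC cells Vim was 1.53-fold lower with TGF-β1 (log2 fold change −0.61, standard error 0.14), and leaving out NC + TGF-β1 replicate 2, the highest treated library, gave −0.80. In siPdcd5 cells it fell 1.71-fold (log2 fold change −0.77, standard error 0.14, adjusted p = 0.00108).

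Pdcd5 knockdown gave no call for the other members. Without TGF-β1 the log2 fold changes of Krt7, Krt8, Krt18 and Vim ran from −0.32 to 0.07, and with TGF-β1 from −0.12 to 0.33, with adjusted p of 0.618 to 0.943. The 95% intervals were narrowest for Krt8, at −0.19 to 0.24 without and −0.34 to 0.09 with TGF-β1. For Vim they were −0.20 to 0.34 and −0.36 to 0.17, and for Krt18 −0.41 to 0.11 and −0.08 to 0.43. For Krt7, with few reads, they were −0.89 to 0.25 and −0.23 to 0.89.

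Counted together, 3 of the 5 members tested were higher and 1 was lower with TGF-β1 in NC cells, where 8.57% of all genes tested were called higher and 6.77% lower. Nothing is read from that count, since the set was chosen with a response in this comparison known. In siPdcd5 cells 3 of 5 rose (Krt8, Krt14 and Krt18) and 1 fell (Vim), against 8.5% and 7.61% of all genes. The NC and siPdcd5 comparisons share no library, whereas the knockdown comparisons use the NC or NC + TGF-β1 libraries. After knockdown 1 of 5 fell (Krt14) and 0 rose, both without TGF-β1, where 2.54% of all genes were called lower and 0.901% higher, and with it, where 1.22% were called lower and 0.33% higher. The difference between the TGF-β1 responses passed the test for 0 of 5 members and 0 of 12425 genes (0%) by edgeR. An unadjusted p under 0.05 was found for 638 genes, none a member, and limma called 0 genes and DESeq2 15 genes, again none a member.

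**Figure D3:**
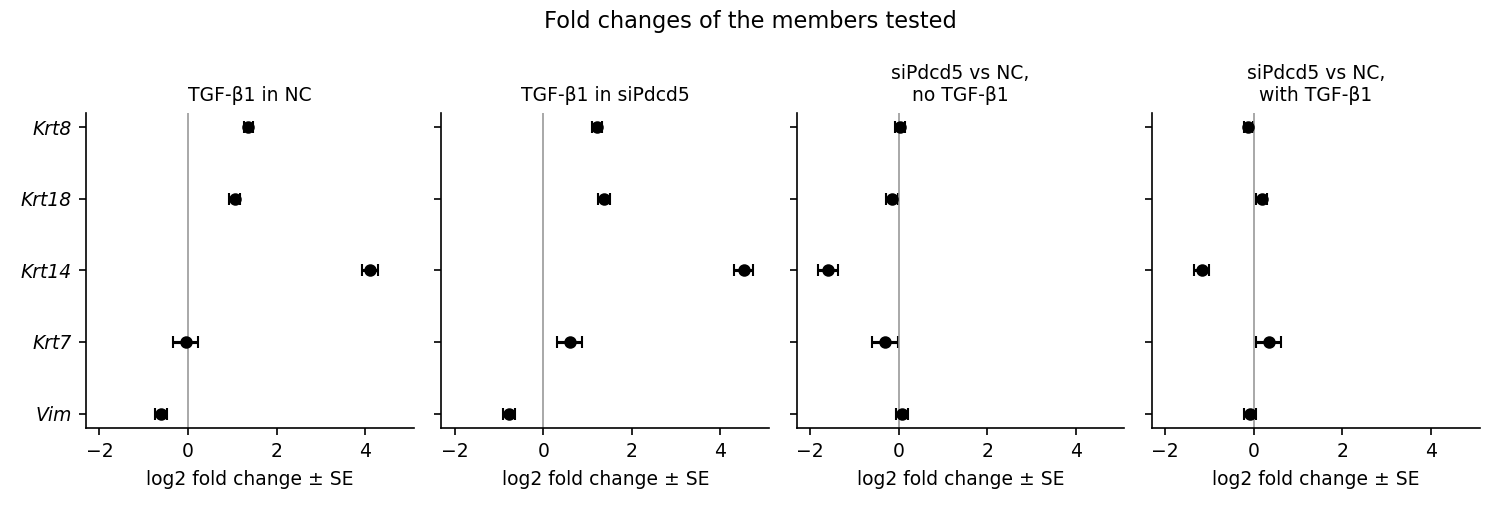
Log2 fold changes of the 5 members tested, with standard errors as bars, after TGF-β1 in NC and siPdcd5 cells and after Pdcd5 knockdown without and with TGF-β1, on 1 shared scale. Krt14 stands at 4.11 and 4.52 with TGF-β1 and at −1.60 and −1.18 after knockdown, while Krt8, Krt18 and Vim lie near 0 after knockdown.

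The make-up of the filament transcripts was compared between groups as ratios of counts within a library, with no test of the ratios. The 8 keratins summed to 683 to 706 CPM in NC, 1409 to 1886 CPM in NC + TGF-β1, 550 to 703 CPM in siPdcd5 and 1659 to 1733 CPM in siPdcd5 + TGF-β1. Vim counts divided by those of Krt8 plus Krt18 were 2.76 to 3.34 in NC and 0.697 to 1.365 in NC + TGF-β1. The ratio was 2.88 to 4.50 in siPdcd5 and 0.714 to 0.849 in siPdcd5 + TGF-β1, so the balance turned from more Vim than Krt8 plus Krt18 reads to fewer in 5 of the 6 treated libraries, the exception being NC + TGF-β1 replicate 2. The share of Krt14 was taken over the reads of the 8 keratins and the 44 other keratin rows. It was 1.44% to 1.69% in NC, 10.1% to 11.95% in NC + TGF-β1, 0.321% to 0.640% in siPdcd5 and 4.52% to 5.07% in siPdcd5 + TGF-β1. Krt18 over Krt8 overlapped between NC and siPdcd5, at 2.263 to 2.83 and 2.08 to 2.70, and was 1.87 to 2.21 in NC + TGF-β1 and 2.46 to 2.70 in siPdcd5 + TGF-β1. Reads of Krt18 can also come from the processed pseudogene Gm5200, 90.5% identical over 1267 bases, and reads of Krt8 from the overlapping lincRNA Gm36026 on the other strand or from Krt8-ps, a pseudogene 98.6% identical over 941 bases that end 774 bases from the 3′ end of the Krt8 transcript.

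Keratins outside the set were nearly silent. Of 46 other keratin symbols 44 had a row, 17 had no read in any library, and the highest level was 1.02 CPM. Krt80, a type II keratin, was the 1 tested, and it was called in no comparison. Most reads of keratins were thus those of Krt8 and Krt18. These made up 97.7% to 98.0% of the reads of the 8 members and the 44 other rows in NC, and 87.7% to 89.7% in NC + TGF-β1.

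Among 7 other intermediate filament genes tested of 16 listed, 1 was higher and 1 lower with TGF-β1 in NC cells by edgeR, where 8.57% and 6.77% of all genes were called. In siPdcd5 cells 1 was higher and 0 lower, where 8.5% and 7.61% of all genes were called. In NC cells limma and DESeq2 each called 3 of the 7, and 5 had an unadjusted p under 0.05 by edgeR. The gene higher in both was Nes, which encodes nestin, a filament protein of progenitor cells, with 0 to 5 reads per library in NC and 24 to 42 in NC + TGF-β1 (log2 fold change 4.17, standard error 0.98, adjusted p = 0.00128). In siPdcd5 cells it had 1 to 10 reads without and 31 to 34 with TGF-β1 (log2 fold change 3.16, standard error 0.72, adjusted p = 0.00325). Nes passed the filter on low counts only through its reads in the libraries with TGF-β1, so both calls are given as descriptions. Iffo2, a filament family orphan, was lower in NC cells (38.8 against 27.4 CPM, log2 fold change −0.50, adjusted p = 0.00394). The nuclear lamin genes Lmna, Lmnb1 and Lmnb2 passed in no comparison by edgeR. Knockdown changed 0 of the 7 by edgeR, limma or DESeq2, with an unadjusted p under 0.05 by edgeR for 0 genes without and 2 genes with TGF-β1. Without TGF-β1, 2.54% of all genes were called lower and 0.901% higher after knockdown, and with it 1.22% and 0.33%. The medians of the 7 with TGF-β1 were 0.36 and 0.16 in NC and siPdcd5 cells.

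Of 11 linkers and keratin-binding genes tested of 13 listed, 2 rose and 1 fell with TGF-β1 in NC cells, and 3 rose and 2 fell in siPdcd5 cells, with medians of 0.28 and 0.33. Of all genes tested, 8.57% rose and 6.77% fell in the first comparison and 8.5% and 7.61% in the second, and 8 and 6 of the 11 linkers were not called. Pkp1 and Pkp2, plakophilins of the desmosome, rose in both (Pkp1 from 1.92 to 8.69 CPM in NC and from 1.31 to 10.4 CPM in siPdcd5; Pkp2 from 25.4 to 47.4 and from 17.0 to 35.1 CPM). Pkp3, another plakophilin, passed in siPdcd5 cells alone, from 2 to 9 reads to 10 to 31 reads, and the difference between its responses did not pass (adjusted p = 0.951). It met the filter on low counts only through its reads in siPdcd5 + TGF-β1, so its call is given as a description. Ppl, which encodes periplakin of the cell cortex, fell from 93.4 to 34.8 CPM in NC cells (log2 fold change −1.42, standard error 0.10, adjusted p = 2.62e-07) and from 64.3 to 22.8 CPM in siPdcd5 cells (log2 fold change −1.50, standard error 0.10, adjusted p = 2.19e-07). Tchp, a keratin-binding protein named after its values were seen, fell by 0.35 on the log2 scale in siPdcd5 cells.

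Ppl was the 1 linker of 11 past the threshold after knockdown, lower by 0.54 on the log2 scale without TGF-β1 (adjusted p = 0.00774) and by 0.61 with it (adjusted p = 0.00817), and it was lowest in siPdcd5 + TGF-β1. In these comparisons 2.54% and 1.22% of all genes were called lower, and 5 and 6 of the 11 linkers had an unadjusted p under 0.05, with medians of −0.52 and −0.26. Evpl, Pkp2 and Fam83h, named after their values were seen, had log2 fold changes of −0.90, −0.58 and −0.52 without TGF-β1 (adjusted p = 0.126, 0.15 and 0.186). The other direction was seen for Tchp without TGF-β1 (log2 fold change 0.32, adjusted p = 0.131). It was also seen for Pkp3, with few reads, with TGF-β1 (log2 fold change 1.45, adjusted p = 0.282). Both had an unadjusted p under 0.05. Of 11 epithelial transcription factors 4 were tested and 0 changed with TGF-β1 by edgeR, limma or DESeq2, with an unadjusted p under 0.05 by edgeR for 0 of them. With TGF-β1, 8.57% of all genes were called higher and 6.77% lower in NC cells, and 8.5% and 7.61% in siPdcd5 cells. Klf5, a factor of proliferating epithelium, fell after knockdown from 87.2 to 48.9 CPM without TGF-β1 (log2 fold change −0.83, standard error 0.13, adjusted p = 0.00234) and from 77.3 to 40.7 CPM with it (log2 fold change −0.93, standard error 0.13, adjusted p = 0.00191).

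Genes with the most similar profiles were sought among 9124 genes over the 12 libraries, by the root mean square difference of centred log2 CPM. For Krt14, whose own values lay 2.31 from their mean, the nearest reported here were Igf1 (0.627) and Postn (0.674). For Vim, with 0.384 around its mean, they were Irs1 (0.113), Tiparp (0.118) and Dusp6 (0.120), and for Krt18, with 0.629, Ehbp1l1 (0.093), Tagln2 (0.097) and Zdhhc16 (0.134). All of these are descriptions over libraries that fall into 4 groups.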

How the data were processed

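The authors sequenced 3′ mRNA-seq libraries as single-end reads, aligned them with Bowtie2 to mm10 per the labels, and took unique as well as multiple alignments into the counts. They deposited read counts as whole numbers per gene symbol without normalization. The use of strand is not given in the sources used here. The rows of Krt8, Krt14 and Krt18 stand among genes of other positions in the tables.

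From these counts, R 4.3.3 with edgeR 4.0.16 was used. Genes were filtered with edgeR's default filter over the 12 libraries, scaled by TMM, and fitted with 1 quasi-likelihood model of 4 groups, and a Benjamini-Hochberg adjusted p under 0.05 over 12425 genes was counted as changed. CPM values use TMM-scaled library sizes, and log2 CPM profiles a prior count of 2. Alternatives used limma 3.58.1 and DESeq2 1.42.0.

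The members, the gene lists and the motifs were chosen with earlier results of these data known. Named were all members, up to 3 called genes with the largest changes per list and comparison, and 3 genes nearest in profile to Krt14, Vim and Krt18. One gene under this rule is not reported here. Depth was 12809857 to 17714828 reads. Reads carry no molecular identifiers. Copies were sought with blastn 2.17.0 in GENCODE vM21 transcripts, and no stretch of 75 bases in the last 500 bases of a member's transcript was identical in another gene.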

Additional observations from a re-analysis of the deposited data

How the results depend on the processing

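The counts of members called, 4 with TGF-β1 in siPdcd5 cells, 1 after knockdown in either state and 0 for the difference of responses, were equal under every alternative tried: DESeq2, limma-trend after quantile normalization, factors from upper quartiles, no filter, a minimum of 10 counts per library, a fit of the compared libraries alone (not run for the difference of responses), a replicate block and each library left out. The median log2 fold change of the members tested in NC cells, a description, was 0.88 to 1.20. For single members, no call was gained or lost, and 9 uncalled values near 0 changed sign. These were Krt7 with TGF-β1 in NC cells (0.008 and 0.086 within a range of −0.166 to 0.086 with 1 library left out), Krt8 after knockdown without TGF-β1 (−0.003, −0.026 and −0.075 within a range of −0.075 to 0.105 with 1 library left out), Vim after knockdown without TGF-β1 (−0.023 within −0.023 to 0.128) and with it (0.004 by limma-trend, and 0.096 within −0.207 to 0.096), and Vim for the difference of responses (0.026 within −0.277 to 0.026). The cause was not tested.

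With the replicate number as a block, 4, 1, 1 and 0 members were called and the median in NC cells was 1.04. Same-numbered libraries deviated together with r over 0.1 in 2 of 12 pairs (−0.324 to 0.166), so the numbers were not taken to pair them. Krt5, Krt15, Krt17 and Krt19 were limited by depth.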

Other observations

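Summed levels of marker genes of other lung cells, values that enter no comparison, were low for ciliated cells (7.53 to 13.1 CPM over the 12 libraries), endothelial cells (0.585 to 2.47 CPM), immune cells (8.68 to 15.1 CPM) and alveolar type 2 cells (20.1 to 26.7 CPM). Abca3, at 19.81 to 26.08 CPM, made up nearly all of the alveolar type 2 sum. The sum for alveolar type 1 cells was 345 to 413 CPM, most of it Akap5 at 300.4 to 366.2 CPM. Of the same type 1 list, Aqp5 was at 25.64 to 57.17 CPM, and Hopx had at most 1 read in any library. Pdpn, which the paper uses for type 1 cells, was listed here with basal cells and is not in that sum.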
